A study of Homo sapiens with 32 samples.

Results

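The genes described here are the 2',5'-oligoadenylate synthetases OAS1, OAS2, OAS3 and OASL together with ABCE1 and PDE12, which act on the 2-5A and RNase L system downstream of the synthetases. They were taken from the expression table by their symbols, and all 6 were found among the 24249 genes it holds. The cells were MM.1S, an established human multiple myeloma cell line, so each sample is a single cell type grown in culture. Every culture received a 1 h pulse and then 12 h in fresh medium: the DMSO group was pulsed with DMSO and kept in DMSO, the ATRA group was pulsed with DMSO and kept in 10 µM all-trans retinoic acid (ATRA, a retinoid that activates nuclear retinoic acid receptors), the Cfz group was pulsed with carfilzomib (an irreversible proteasome inhibitor) and kept in DMSO, and the ATRA+Cfz group was pulsed with carfilzomib and kept in ATRA. No dose of carfilzomib is stated for the pulse. RNA was sequenced from 3 DMSO, 3 ATRA, 1 Cfz and 1 ATRA+Cfz libraries, each run on 4 lanes that were averaged, and the labels do not say whether the 3 libraries of a group came from separate cultures. Each p-value is therefore set against how much libraries of a group vary, and that variation may be technical, and the Cfz and ATRA+Cfz values have no replicate check of their own.

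OAS1, OAS2 and OAS3 are enzymes that, on binding double-stranded RNA, join ATP into short 2'-5'-linked oligoadenylates known as 2-5A. This second messenger makes the latent endoribonuclease RNase L pair into its active form, which cuts single-stranded viral and cellular RNA and so stops translation. OASL carries the same fold but lacks synthetase activity and is known for enhancing RIG-I signalling. ABCE1, also called the RNase L inhibitor, is an iron-sulfur ATPase that splits terminated ribosomes into subunits, and PDE12 is a phosphodiesterase that degrades 2-5A and trims adenosine tails from mitochondrial RNA. The synthetase genes are classical interferon targets, and OAS1, OAS3 and OAS2 lie next to each other on chromosome 12.

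The sequences just before the starts of OAS1 and OAS3 are shown because these neighbouring genes rose together and both carry letters of the kind that interferon regulatory factors (IRFs) bind. RefSeq (GRCh38.p14) gave a promoter window for 4 of the 6 genes, and the 250 bases before the start are printed 5′ to 3′ on the plus strand, on which both genes lie. Capitals mark matches, on either strand, to AANNGAAA, the core letters bound by IRFs, and to the core of the interferon-stimulated response element (ISRE core: GAAA, any 2 letters, GAAA), which overlap each other where both are present.

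OAS1, chr12:112906712-112906961: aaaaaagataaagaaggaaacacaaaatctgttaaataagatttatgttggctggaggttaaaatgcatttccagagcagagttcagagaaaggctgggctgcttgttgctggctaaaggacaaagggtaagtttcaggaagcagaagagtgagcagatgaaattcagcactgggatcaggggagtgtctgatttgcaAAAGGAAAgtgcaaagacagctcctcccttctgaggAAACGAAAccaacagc
OAS3, chr12:112938224-112938473: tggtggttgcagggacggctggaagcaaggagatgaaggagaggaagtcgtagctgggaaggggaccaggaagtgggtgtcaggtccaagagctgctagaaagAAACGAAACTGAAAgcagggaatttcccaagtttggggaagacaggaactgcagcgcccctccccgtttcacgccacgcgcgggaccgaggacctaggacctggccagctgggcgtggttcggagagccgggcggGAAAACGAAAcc

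The OAS1 window held AANNGAAA at 2 places and no ISRE core as defined here, with 2 letters between the GAAA units. With the letter before it, its match nearest the start reads GAAACGAAA. That is 2 GAAA units 1 letter apart, which this definition does not count. In the OAS3 window AANNGAAA occurred at 3 places and the ISRE core at 2. Of 35116 promoter windows of the same length, 20.3% held AANNGAAA and 3.02% held the ISRE core on either strand. AGGTCA, 1 form of the half-site of retinoic acid receptors, was present in 12.1% of windows and in neither of these. Other forms of the half-site were not searched. The windows of ABCE1 (chr4:145098061-145098310) and PDE12 (chr3:57556024-57556273) held neither IRF motif. Their matches were 1 TGACGTCA, the cyclic AMP response element, in ABCE1 (1.65% of windows hold it) and 1 AGGTCA on the opposite strand in PDE12. The motifs were chosen with these sequences in view, and a match describes letters only, not a bound site.

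Values are fragments per 1000000 (FPM), that is, the reads counted for a gene out of every 1000000 counted in the library, with 14136937 to 17155331 counted reads per library. FPM is not divided by transcript length, so levels are compared between libraries for one gene and not between genes. It is also a share of all counted RNA, and in bulk RNA fewer expressing cells and less RNA per cell cannot be told apart. As a check of the label, all 10 plasma cell and myeloma markers of a fixed list had rows and summed to 9160 to 10607 FPM with DMSO, 12576 to 12663 FPM with ATRA, 9329 FPM with Cfz and 10723 FPM with ATRA+Cfz. Markers of other cells were far lower, the highest single values in any library being 3.34 FPM for EPCAM and 2.48 FPM for CD7. Summed T and NK cell markers (3 of 6 with a row) were 1.63 to 2.21 FPM with DMSO, 2.84 to 3.88 FPM with ATRA, 2.1 FPM with Cfz and 1.7 FPM with ATRA+Cfz. Summed myeloid markers (3 of 5) were 0.302 to 0.468, 0.625 to 1.32, 0.59 and 1.27 FPM in the same order, stromal markers (3 of 4) were at most 0.503 FPM, and epithelial markers (4 of 4) were 0.874 to 1.61, 0.752 to 1.15, 3.67 and 2.54 FPM. CD7, CD14, COL1A1, COL1A2, DCN and KRT18 were at 0 in at least 1 library. The 4 B cell markers were not analysed here. The part of these markers in the results below was not tested.

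All 3 active synthetase genes were several times higher in ATRA-treated cells. OAS1, which encodes the smallest synthetase, rose most: its level was 13.9, 13.5 and 19.1 FPM in DMSO libraries 1 to 3 and 125, 129 and 131 FPM in the ATRA libraries. The groups were far apart, the lowest ATRA library standing 6.54-fold above the highest DMSO library. The mean went from 15.5 ± 3.09 FPM (SD, n = 3) to 128 ± 3.16 FPM (SD, n = 3), an 8.27-fold ratio. On the scale of log2(FPM + 0.5) used for all tests the difference was 3.02 ± 0.10 (SE; limma, Benjamini-Hochberg adjusted p = 1.4e-09), which placed OAS1 at rank 25 from the highest of 15827 genes tested.

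OAS3, the largest synthetase and known as a main activator of RNase L, stood at 12.9, 12.2 and 15.5 FPM with DMSO and at 58.9, 58 and 59.6 FPM with ATRA. No ATRA library came near the DMSO range, and the ratio of the means was 4.35. The log2 difference was 2.09 ± 0.08 (SE; limma adjusted p = 4.0e-09), rank 74. OAS2, the synthetase with a doubled unit, was measured at 41.4, 43.4 and 43.4 FPM with DMSO and 124, 120 and 120 FPM with ATRA. Its libraries were the tightest of the 3 genes within the DMSO group, and its ratio, 2.84, was the smallest of the 3. The log2 difference of OAS2 was 1.49 ± 0.04 (SE; limma adjusted p = 2.8e-10), rank 141.

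**Figure D1:**
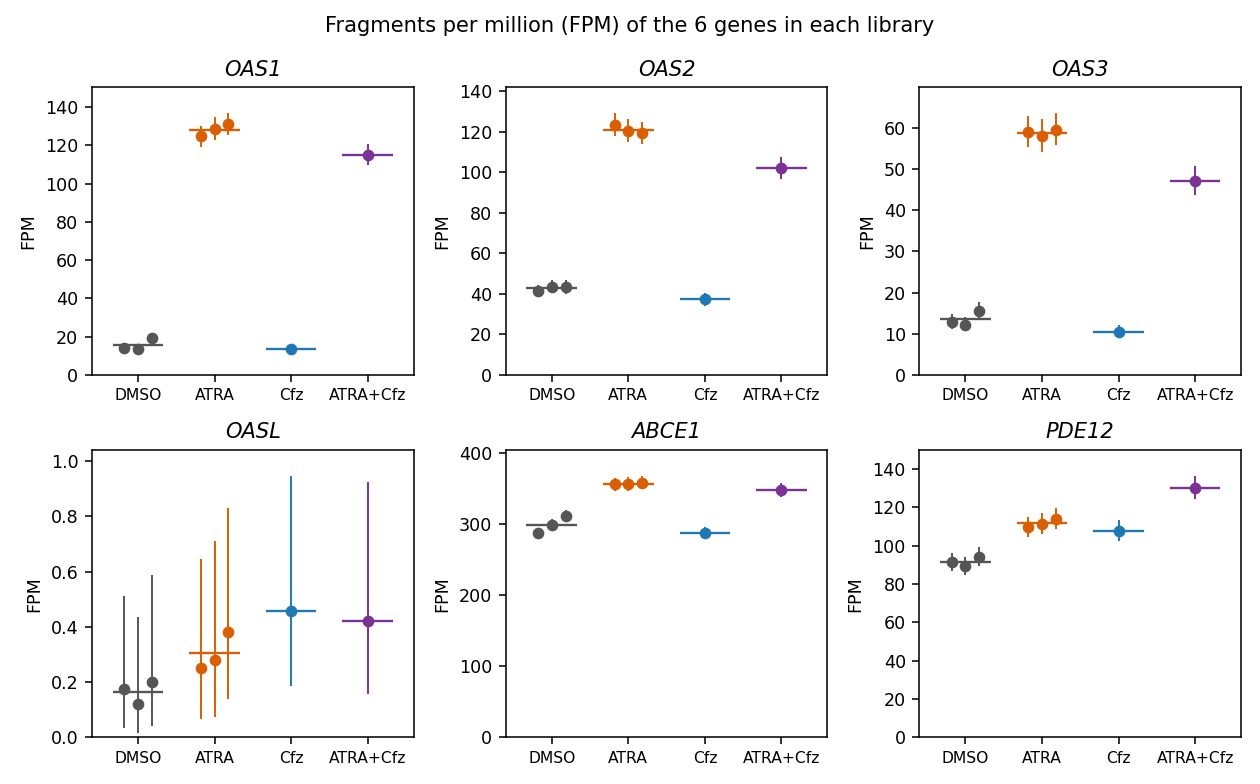
Level of each gene in fragments per 1000000 (FPM, vertical axes from 0) in the 8 libraries by group (horizontal axes); points are libraries with 95% Poisson intervals of their reads, which cover counting error only, and bars are group means. OAS1, OAS2 and OAS3 are high in both groups that received ATRA, PDE12 is highest in ATRA+Cfz at 130 FPM, and the OASL points rest on 2 to 7 reads each.

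The 3 synthetases did not rise in proportion. The ratio of OAS1 to OAS2 FPM within a library, whose absolute size also depends on transcript length, was 0.337, 0.311 and 0.439 with DMSO and 1.01, 1.07 and 1.1 with ATRA. It was 0.366 with Cfz and 1.13 with ATRA+Cfz, so the groups with ATRA did not overlap those without. The ratio of OAS3 to OAS2 moved less, from 0.281 to 0.357 over the DMSO libraries to 0.477 to 0.498 over the ATRA libraries. OAS1 to OAS3 went from 1.08 to 1.23 up to 2.12 to 2.22. These ratios were not tested, and the 95% intervals of the log2 differences with ATRA were 2.80 to 3.25 for OAS1, 1.91 to 2.26 for OAS3 and 1.40 to 1.58 for OAS2.

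DMSO library 3 stood above the other 2 DMSO libraries for part of the set. OAS1 was there 1.39-fold and OAS3 1.24-fold the mean of libraries 1 and 2, whereas OAS2, ABCE1 and PDE12 were 1.02-fold, 1.06-fold and 1.04-fold. With any 1 of the DMSO or ATRA libraries left out, the ATRA difference stayed between 2.94 and 3.18 for OAS1, 1.47 and 1.5 for OAS2, and 2.02 and 2.19 for OAS3.

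OASL, the member without synthetase activity, was close to the limit of detection in every library. It had 0.176, 0.12 and 0.201 FPM with DMSO, 0.252, 0.281 and 0.382 FPM with ATRA, 0.459 FPM with Cfz and 0.422 FPM with ATRA+Cfz, which are 2 to 7 reads each. Its mean was under the minimum of 0.5 FPM, so it was not tested with the other genes. The ATRA libraries held 14 reads in all and the DMSO libraries 8, a ratio of 1.85 with an exact 95% interval of 0.726 to 5.1 for counting error only, and Cfz held 7 reads, 2.79-fold the DMSO level with an interval of 0.862 to 8.81. Neither difference was detectable at this depth.

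The genes that restrain the pathway rose by much less. ABCE1 was at 287, 299 and 311 FPM with DMSO and at 356, 357 and 359 FPM with ATRA. All ATRA libraries were higher, by a ratio of means of 1.19, and the log2 difference was 0.26 ± 0.04 (SE; limma adjusted p = 1.1e-04), rank 3127. PDE12 was at 91.6, 89.3 and 94.2 FPM with DMSO and at 110, 112 and 114 FPM with ATRA. Its ratio of means was 1.22 and its log2 difference 0.29 ± 0.04 (SE; limma adjusted p = 6.4e-05), rank 2799. In GENCODE release 29, 276 bases (4.41%) of the exons of ABCE1 are also exons of OTUD4 and 469 bases (7.49%) are exons of ANAPC10, both on the opposite strand. OTUD4, a deubiquitinase gene, was at 86.8 to 97.7 FPM in DMSO libraries and 157 to 166 FPM in ATRA libraries. No source used here states whether the counting used strand, so reads of the shared bases cannot be assigned.

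Counted together, 5 of the 5 tested genes were higher with ATRA than with DMSO and none was lower, while 21.3% of all genes tested were called higher and 27.4% lower (limma, Benjamini-Hochberg adjusted p under 0.05). In all 6 genes, OASL included, every ATRA library lay above every DMSO library, which 25.5% of all tested genes also did. An exact two-sided permutation test of 3 against 3 libraries gave p = 0.1 for each of the 6, the smallest it can give.

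The carfilzomib pulse alone changed these genes little. OAS1 was at 13.6 FPM in the Cfz library, inside the DMSO range, a log2 difference of -0.16 ± 0.14 (SE; limma adjusted p = 0.46, 95% interval -0.48 to 0.16). Without DMSO library 3, the highest of its group, this difference was -0.01, and without DMSO library 2 it was -0.25. OAS2, at 37.2 FPM, and OAS3, at 10.4 FPM, lay below all DMSO libraries, with ratios of 0.871 and 0.77. Their log2 differences were -0.20 ± 0.06 and -0.35 ± 0.11 (SE; limma adjusted p = 0.029 and 0.042). These 2 calls were lost with edgeR on the reads (quasi-likelihood test; -0.16, adjusted p = 0.13, and -0.33, adjusted p = 0.12), with DESeq2 (-0.14, adjusted p = 0.44, and -0.31, adjusted p = 0.24), and in limma without any 1 of the 3 ATRA libraries, where the adjusted p was 0.053, 0.056 and 0.054 for OAS2 and 0.076, 0.073 and 0.071 for OAS3. OAS2 was also not called without DMSO library 2 (-0.18, limma adjusted p = 0.066). Neither OAS2 nor OAS3 was called in limma with median-ratio scaling (-0.14 and -0.30) or TMM scaling (-0.16 and -0.32). The median Cfz difference over all genes tested was -0.08 before such scaling.

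PDE12 was higher after the pulse, at 108 FPM against a highest DMSO value of 94.2 FPM, though no single lane alone gave a call. The log2 difference was 0.23 ± 0.05 (SE; limma adjusted p = 0.0085). ABCE1, at 288 FPM, was inside the DMSO range, with a log2 difference of -0.05 ± 0.05 (SE; limma adjusted p = 0.5, 95% interval -0.17 to 0.06). In all, 1 of the 5 tested genes was called higher and 2 lower with Cfz, against 7.94% and 17.0% of all genes tested. The split of calls over all genes depended on the tool: 31.8% of the genes called with Cfz were higher with limma, 42.2% with edgeR and 53.1% with DESeq2.

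ATRA raised the synthetases after a carfilzomib pulse as well. OAS1 was at 115 FPM in the ATRA+Cfz library against 13.6 FPM in the Cfz library, a log2 difference of 3.03 ± 0.18 (SE; limma adjusted p = 4.1e-07). For OAS2, 102 FPM stood against 37.2 FPM (1.44 ± 0.07 SE; limma adjusted p = 1.3e-07), and for OAS3 47.1 FPM stood against 10.4 FPM (2.12 ± 0.14 SE; limma adjusted p = 9.8e-07). These ratios, 8.44, 2.74 and 4.52, lie beside 8.27, 2.84 and 4.35 without carfilzomib, measured in libraries that the first comparison does not use. ABCE1 was at 348 FPM against 288 FPM (0.27 ± 0.06 SE; limma adjusted p = 0.0063) and PDE12 at 130 FPM against 108 FPM (0.27 ± 0.07 SE; limma adjusted p = 0.0086). All 5 tested genes were called higher here and none lower, against 12.8% and 17.6% of all genes tested.

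**Figure D2:**
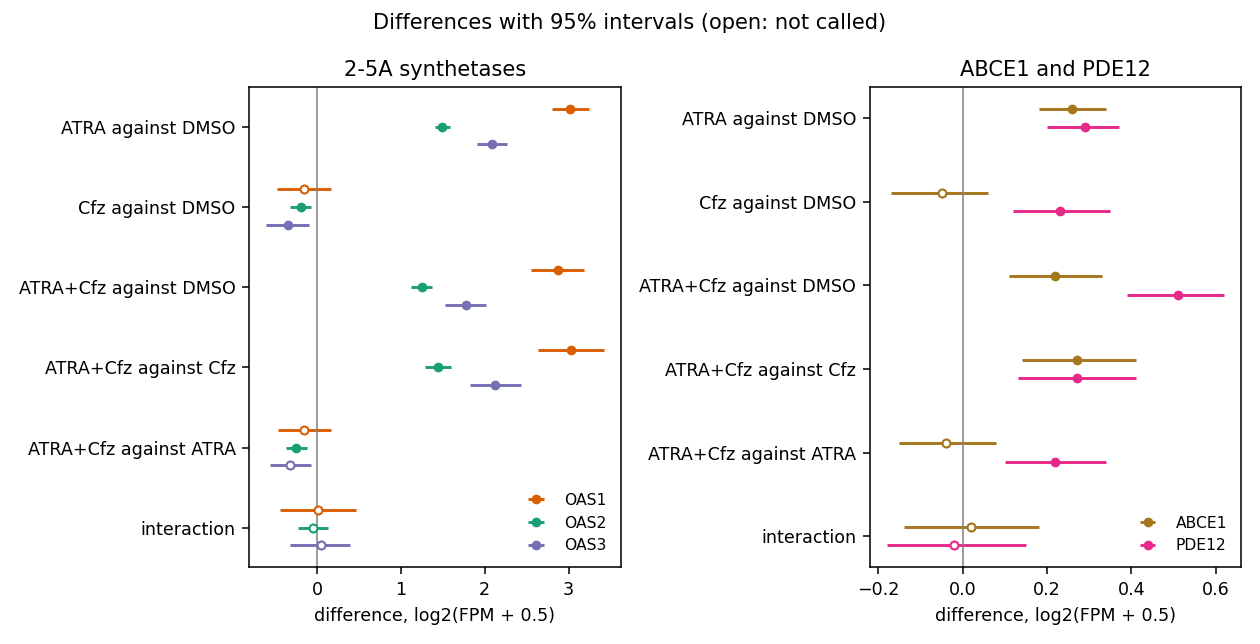
Difference of each tested gene on the log2(FPM + 0.5) scale (horizontal axes, which differ in range) in the 6 comparisons (rows), with 95% intervals from limma; filled points were called at an adjusted p under 0.05 and open points were not. The 3 synthetases lie between 1.25 and 3.03 wherever a group with ATRA is set against one without, and every interaction interval spans 0.

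Against DMSO, the ATRA+Cfz library was higher in the same 5 genes and lower in none, where 20.0% of all genes tested were higher and 30.5% lower. The log2 difference was 2.87 ± 0.14 for OAS1, 1.25 ± 0.06 for OAS2 and 1.77 ± 0.11 for OAS3 (SE; limma adjusted p = 2.7e-08, 1.5e-08 and 1.9e-07). It was 0.22 ± 0.05 for ABCE1 (SE; limma adjusted p = 0.0036) and 0.51 ± 0.05 for PDE12 (SE; limma adjusted p = 1.0e-05). PDE12 was the tested gene of the set with a higher level in ATRA+Cfz than in each single treatment.

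With ATRA present, the library that had also been pulsed with carfilzomib was below the whole ATRA range for OAS1, OAS2 and OAS3. OAS2 was called lower than with ATRA alone (-0.25 ± 0.06 SE; limma adjusted p = 0.0077), and DESeq2 did not call it (-0.22, adjusted p = 0.08). The OAS3 difference was -0.32 ± 0.11 (SE, limma adjusted p = 0.055, 95% interval -0.57 to -0.07). It passed with edgeR (-0.28, adjusted p = 0.046) and in limma without DMSO library 2 or 3 (adjusted p = 0.038 and 0.0023). It also passed with the filter at 2 FPM and with robust empirical Bayes (limma adjusted p = 0.048 and 0.045). It did not pass with DESeq2 (-0.29, adjusted p = 0.13) or with median-ratio or TMM scaling (limma adjusted p = 0.087 and 0.1). Nor did it pass in any single lane or without DMSO library 1 (limma adjusted p = 0.059). Without ATRA library 1, 2 or 3 the limma adjusted p was 0.12, 0.1 and 0.12. The OAS1 difference of -0.16 ± 0.14 (SE, limma adjusted p = 0.46) was not called. Without DMSO library 3 it stayed at -0.16 and its limma adjusted p was 0.042. No DMSO library enters this comparison, so leaving out a DMSO library changes the spread used by the test and not the difference. PDE12 was higher than with ATRA alone (0.22 ± 0.05 SE; limma adjusted p = 0.0093), and ABCE1 differed by -0.04 ± 0.05 (SE; limma adjusted p = 0.65, 95% interval -0.15 to 0.08). Of the 5 tested genes, 1 was called higher and 1 lower, against 10.6% and 20.2% of all genes tested.

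The interaction, the ATRA difference after carfilzomib minus the ATRA difference without it, was not called for any of the 5 tested genes, and 2.30% of all genes tested were called. It was 0.01 ± 0.21 for OAS1 (SE; limma adjusted p = 0.99, 95% interval -0.44 to 0.46), -0.05 ± 0.08 for OAS2 (SE; limma adjusted p = 0.8, interval -0.23 to 0.13) and 0.04 ± 0.16 for OAS3 (SE; limma adjusted p = 0.94, interval -0.32 to 0.39). For ABCE1 it was 0.02 ± 0.07 (SE; limma adjusted p = 0.93, interval -0.14 to 0.18) and for PDE12 -0.02 ± 0.08 (SE; limma adjusted p = 0.94, interval -0.18 to 0.15). No unadjusted limma p of these genes was under 0.05, and edgeR also called 0 of the 5. DESeq2 called none of them either, but it gave no adjusted p for OAS3.

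By level, OAS1 and OAS3 were lowest in Cfz, then DMSO, then ATRA+Cfz, then ATRA. For OAS1 neither the pair without ATRA nor the pair with ATRA was separated by its test, and for OAS3 the pair with ATRA was not. OAS2 followed the same order, with each step called in limma, the step from Cfz to DMSO subject to the losses given above. ABCE1 formed a lower pair (DMSO and Cfz) and an upper pair (ATRA+Cfz and ATRA), and neither pair was separated by its test. PDE12 was lowest in DMSO, with Cfz and ATRA above it and ATRA+Cfz highest.

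The interferon pathway around the synthetases did not move as a block with ATRA. The core interferon-stimulated genes were a list of 32, of which 30 had a row and 22 were tested. With ATRA 8 were higher, 4 lower and 10 not called, against 21.3% higher and 27.4% lower of all genes tested. Their median log2 difference was 0.04 against -0.03 over all genes tested. UBE2L6, the conjugating enzyme for the ubiquitin-like ISG15, rose from 46.6 to 50.5 FPM with DMSO to 98 to 105 FPM (1.05; limma adjusted p = 9.6e-09). ISG20, an exonuclease gene, rose by 0.82 (limma adjusted p = 7.5e-07). IFIT1, which binds foreign 5′ RNA ends, was at 3.14 to 4.19 FPM in DMSO libraries and 1.33 to 1.87 FPM in ATRA libraries and fell by 1.05 (limma adjusted p = 3.1e-04). MX1, a dynamin-like antiviral GTPase, went from 17.4 to 19.3 FPM down to 9.67 to 9.83 FPM and fell by 0.89 (limma adjusted p = 1.7e-06).

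Among JAK, STAT and IRF genes (16 tested of 17), 5 rose and 9 fell with ATRA, with a median of -0.21. Of all genes tested, 21.3% were called higher and 27.4% lower. IRF1, a transcription factor that binds the IRF motif shown above, was at 83.6, 82.2 and 82.4 FPM with DMSO and 199, 207 and 194 FPM with ATRA (1.27 ± 0.04 SE; limma adjusted p = 4.2e-10). It was at 79.4 FPM with Cfz and 229 FPM with ATRA+Cfz. Like OAS1, it was higher in the groups with ATRA. In ATRA+Cfz, however, IRF1 stood above its ATRA range, whereas OAS1 stood below its own. A link between IRF1 and the synthetase genes was not tested. IRF8, a related factor of immune cells, rose by 1.13 (limma adjusted p = 1.7e-05). SOCS3, a feedback inhibitor of cytokine signalling, rose by 1.70 from very low levels, 0 to 0.174 FPM in DMSO libraries and 0.904 to 1.83 FPM in ATRA libraries (limma adjusted p = 8.5e-05).

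STAT2 and IRF9, which act together in the type I interferon response that drives OAS genes, were not called higher with ATRA. STAT2 was at 183 to 196 FPM in DMSO libraries and 153 to 157 FPM in ATRA libraries (-0.31 ± 0.04 SE; limma adjusted p = 3.0e-05). IRF9, a DNA-binding factor, was at 10.2 to 11.6 FPM in DMSO libraries and 11.7 to 13.1 FPM in ATRA libraries and was not called (0.19 ± 0.09 SE; limma adjusted p = 0.11).

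Of the interferon ligands and receptors, 7 of 16 had a row and 6 were tested. With ATRA 1 rose and none fell, against 21.3% and 27.4% of all genes tested. IFNGR1, a chain of the interferon gamma receptor, went from 21.1 to 23.2 FPM up to 36.9 to 37.5 FPM (0.76 ± 0.06 SE, limma adjusted p = 7.1e-07). IFNB1 was not analysed here.

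Of 12 sensors of foreign nucleic acid, including proteins that meet the same double-stranded RNA as the synthetases, 2 rose and 3 fell with ATRA. Their median was 0.01, and of all genes tested 21.3% were called higher and 27.4% lower. IFIH1, which encodes MDA5, rose from 86.4 to 88.9 FPM to 116 to 123 FPM (0.43 ± 0.04 SE; limma adjusted p = 2.3e-06), and TARBP2 rose by 0.36 (limma adjusted p = 0.0011). DDX58, which encodes RIG-I, fell by 0.77 (limma adjusted p = 5.7e-05), with 9.78 to 11.4 FPM going to 5.86 to 6.18 FPM. EIF2AK2, the gene of the RNA-activated kinase PKR, was at 200, 203 and 170 FPM with DMSO and 171, 168 and 172 FPM with ATRA. Its difference of -0.16 ± 0.06 (SE; limma adjusted p = 0.038) rests on DMSO libraries 1 and 2 and was not called without DMSO library 1 (-0.12, limma adjusted p = 0.14), DMSO library 2 (-0.12, 0.15) or ATRA library 1, 2 or 3 (limma adjusted p = 0.095, 0.12 and 0.08). CGAS, the DNA sensor, was called lower (-0.15; limma adjusted p = 0.016), and the call was lost without DMSO library 1 or 2 (-0.14 and -0.15, limma adjusted p = 0.051 and 0.05), without ATRA library 2 (-0.13, limma adjusted p = 0.073) and with DESeq2 (-0.12, adjusted p = 0.29). Without ATRA library 2, DDX58 is thus the remaining one of the 3 lower calls.

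With Cfz against DMSO, 7 of the 22 tested core interferon-stimulated genes were higher and 2 lower, against 7.94% and 17.0% of all genes tested, with a median log2 difference of 0.01 against -0.08 over all genes. IFI44 had the largest difference, from 1.63 to 2.6 FPM with DMSO to 15.8 FPM with Cfz and 10.3 FPM with ATRA+Cfz (2.66 ± 0.24 SE; limma adjusted p = 2.4e-05). SAMD9L, an antiviral factor that inhibits translation, rose by 0.80 (limma adjusted p = 3.0e-06) and ISG20 by 0.60 (limma adjusted p = 6.5e-04). In the sensor list 1 rose and 2 fell: IFIH1 rose by 0.51 (limma adjusted p = 7.1e-05), CGAS fell by 0.43 (limma adjusted p = 7.8e-04), and PRKRA was called lower with limma (-0.35, adjusted p = 0.012) but not with DESeq2 (-0.29, adjusted p = 0.11). Of the 6 tested ligand and receptor genes none rose and 3 fell, IFNAR2 of the type I interferon receptor most (-0.52 ± 0.05 SE; limma adjusted p = 7.5e-05). IFNLR1, of the interferon lambda receptor, was called lower with limma (-0.30, adjusted p = 0.0089) but not with DESeq2 (-0.24, adjusted p = 0.18). IFNGR2 was called lower (-0.17 ± 0.06 SE; limma adjusted p = 0.044), and this call was lost with edgeR (-0.14, adjusted p = 0.14), with DESeq2 (-0.12, adjusted p = 0.51), without DMSO library 1 or 2 (limma adjusted p = 0.06 and 0.075) and without ATRA library 1, 2 or 3 (0.071, 0.072 and 0.069). Among JAK, STAT and IRF genes 1 rose and 1 fell. IRF3 rose by 0.27 (limma adjusted p = 0.014), and IRF9 was called lower (-0.44 ± 0.13 SE; limma adjusted p = 0.025), a call lost without DMSO library 1 (-0.40, limma adjusted p = 0.059) and with DESeq2 (-0.41, adjusted p = 0.25).

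**Figure D3:**
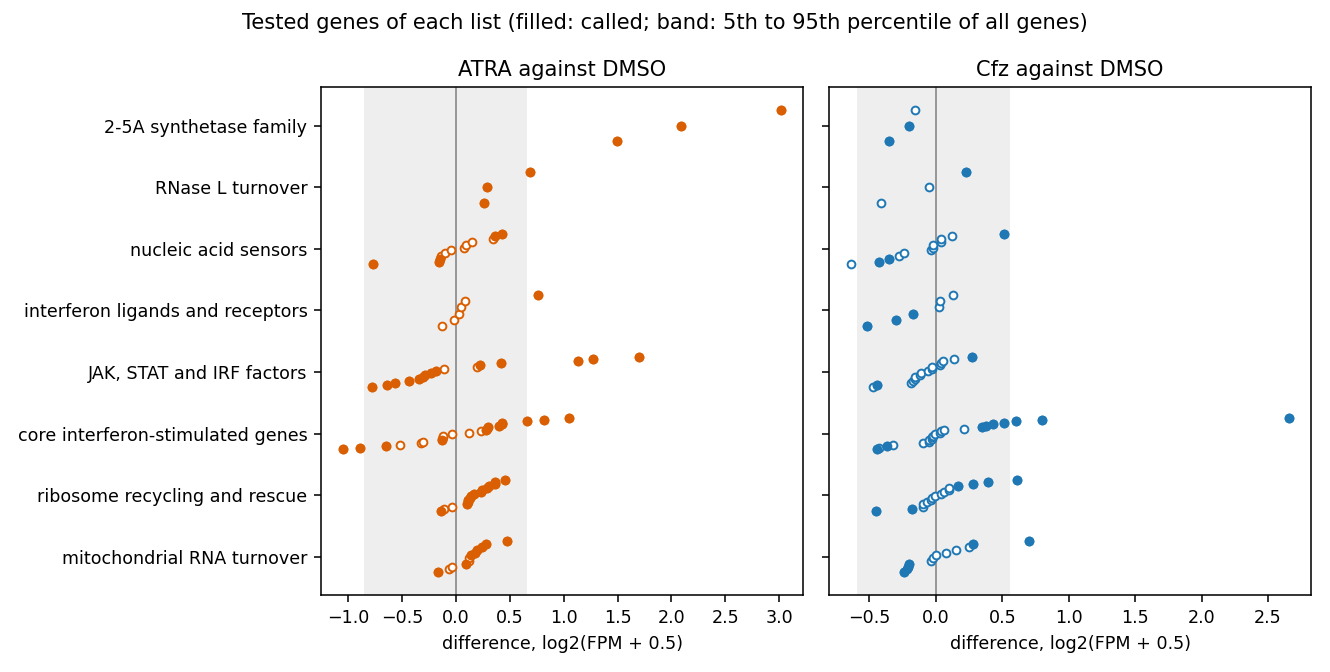
Log2(FPM + 0.5) difference (horizontal axes) of every tested gene of each list (rows) for ATRA and for Cfz against DMSO; filled points were called at a limma adjusted p under 0.05, and the grey band runs from the 5th to the 95th percentile of all genes tested. The 3 synthetases lie to the right of the band with ATRA, from 1.49 to 3.02, the 3 genes for RNase L turnover (ABCE1, PDE12 and AKAP7) lie between 0.26 and 0.69, and the remaining lists spread to both sides of 0.

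ABCE1 and PDE12 can be set beside the genes of their other functions. In the list for ribosome recycling and rescue, in which ABCE1 works, 13 of 16 genes tested rose and 1 fell with ATRA. Of all genes tested, 21.3% were called higher and 27.4% lower. The list median was 0.15 against -0.03 over all genes. PELO, the rescue factor that opens stalled ribosomes for ABCE1, rose by 0.45 with ATRA (limma adjusted p = 1.8e-04) and by 0.61 with Cfz (limma adjusted p = 0.001). EIF1, an initiation factor that keeps recycled subunits apart, rose by 0.36 with ATRA (limma adjusted p = 5.0e-06). EIF3C rose by 0.36 (limma adjusted p = 0.0024), but this value is uncertain. Its lanes differed within at least 1 library (chi-square test of lane reads, smallest p = 3.4e-42). A near-identical copy of the gene exists, and the part of that copy was not tested. With Cfz 4 rose and 2 fell, against 7.94% and 17.0% of all genes tested. EIF3J was among the higher genes (0.39, limma adjusted p = 6.9e-04) and EIF1AX among the lower (-0.45, limma adjusted p = 9.5e-05).

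In the list for mitochondrial RNA turnover, in which PDE12 works, 7 of 12 rose and 1 fell with ATRA, with a median of 0.13. Of all genes tested, 21.3% were called higher and 27.4% lower with ATRA. With Cfz 2 rose and 3 fell, against 7.94% and 17.0% of all genes tested. REXO2, a mitochondrial exonuclease of very short RNA, was at 82.2 to 86.8 FPM with DMSO, 115 to 120 FPM with ATRA, 136 FPM with Cfz and 163 FPM with ATRA+Cfz. It was called in both comparisons (0.47 and 0.70; limma adjusted p = 1.2e-06 and 8.1e-06), and its groups stood in the same order as those of PDE12 except that Cfz was above ATRA. FASTKD2, which binds mitochondrial ribosomal RNA, rose by 0.28 with ATRA (limma adjusted p = 8.6e-05) and by 0.28 with Cfz (limma adjusted p = 0.0037). SLIRP, which stabilises mitochondrial messenger RNA, was called with ATRA (0.24 ± 0.08 SE; limma adjusted p = 0.026) but not without DMSO library 1 (0.21, limma adjusted p = 0.083), DMSO library 2 (0.24, 0.057) or ATRA library 2 (0.17, 0.12). MTPAP, the mitochondrial poly(A) polymerase whose tails PDE12 removes, was called lower with Cfz (-0.24; limma adjusted p = 0.027), and was not called without DMSO library 2 (-0.24, limma adjusted p = 0.053), with median-ratio or TMM scaling (-0.18 and -0.20, limma adjusted p = 0.096 and 0.067), with edgeR (-0.20, adjusted p = 0.075) or with DESeq2 (-0.18, adjusted p = 0.32).

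AKAP7, whose central domain can degrade 2-5A as PDE12 does, rose with ATRA. It was at 8.8, 7.72 and 10.4 FPM with DMSO and at 15.4, 13.9 and 14.9 FPM with ATRA, groups that did not overlap (0.69 ± 0.11 SE; limma adjusted p = 2.4e-04). It was at 6.55 FPM with Cfz and 12.8 FPM with ATRA+Cfz.

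Likeness was measured as the root mean square difference of log2(FPM + 0.5) profiles over the 8 libraries, each centred on its own mean, among all genes tested. Of the genes reported here, MPPED2 was nearest to OAS1 (0.122 log2 units, Pearson r = 0.997), with a log2 difference of 3.05 with ATRA. APOL3, TLR5 and SHB followed, at 0.156, 0.187 and 0.199. TLR5 was near the limit of detection in DMSO libraries, at 0.0607 to 0.2 FPM. MPPED2 and SHB were at most 2.34 and 1.81 FPM there. At such levels the added 0.5 FPM makes the log2 difference smaller, so the likeness to OAS1 depends on it. XBP1, the plasma cell transcription factor, was nearest to OAS2 (0.043, r = 0.999), with 888 to 906 FPM in DMSO libraries and 2635 to 2656 FPM in ATRA libraries. Next came FRAS1, C4orf47 and RNF187 at 0.052, 0.069 and 0.070. LZTFL1 was nearest to OAS3 (0.071, r = 0.998), before RMDN2, LCAT and AQP3 at 0.143, 0.144 and 0.156.

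ABCE1 lay nearest to RPL5, a ribosomal protein gene (0.023, r = 0.987), then to PTCD3, RPL4 and MTIF2 at 0.024, 0.026 and 0.027. Of these, RPL4 also encodes a ribosomal protein, and PTCD3 and MTIF2 work at the mitochondrial ribosome. PDE12 lay nearest to CAPZA1 (0.025, r = 0.990), then to RAB21, THUMPD3 and CDK7 at 0.027, 0.029 and 0.033. All these points share the same 8 libraries and the same group structure, so the correlations describe group means more than single libraries.

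The rise with ATRA at the OAS1, OAS3 and OAS2 locus was much larger than at the adjacent genes. Of the 10 nearest protein-coding neighbours, 5 on each side, 9 had a row and 6 were tested. With ATRA 3 rose and none fell, against 21.3% and 27.4% of all genes tested. RITA1 rose by 0.37, RPL6 by 0.33 and TRAFD1 by 0.20 (limma adjusted p = 0.0048, 1.9e-05 and 0.012). The TRAFD1 call was lost with DESeq2 (0.24, adjusted p = 0.073), and the sign of its difference changed in lane 4 alone. PTPN11 differed by 0.00 ± 0.03 (SE; limma adjusted p = 0.98). The genes next to the cluster, RPH3A on one side and DTX1 on the other, gave no test: RPH3A was at most 0.293 FPM in any library and DTX1 was not analysed here. RASAL1, the neighbour after DTX1, was at 0.182 to 0.408 FPM in DMSO libraries and 0.485 to 0.956 FPM in ATRA libraries, below the minimum. An antisense gene, AC004551.1, shares 92 exonic bases (1.86%) with OAS1 and was at most 0.636 FPM in any library.

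At the other loci the neighbours went both ways, and of all genes tested 21.3% were called higher and 27.4% lower with ATRA. Around OASL, also on chromosome 12, 3 of 9 tested neighbours rose and 3 fell with ATRA, the ATP receptor gene P2RX4 rising by 0.56 (limma adjusted p = 1.1e-05). The 3 lower calls, UNC119B, ACADS and RNF34, were all lost without ATRA library 3 (-0.19, -0.48 and -0.16; limma adjusted p = 0.059, 0.091 and 0.066) and with DESeq2 (adjusted p = 0.12, 0.22 and 0.24). ACADS was also not called without DMSO library 1 or 2 or ATRA library 1 (limma adjusted p = 0.057, 0.1 and 0.092). Of the 3 higher calls, ANAPC5 (0.12) was lost without DMSO library 2 or 3 or ATRA library 2 or 3 (limma adjusted p = 0.082, 0.057, 0.13 and 0.15). Around ABCE1 on chromosome 4, 3 of 5 rose and 1 fell. OTUD4 rose by 0.81 (limma adjusted p = 7.9e-08) and SMAD1 fell by 0.63 (limma adjusted p = 4.9e-05). ANAPC10, also called higher, was not called with DESeq2 (0.31, adjusted p = 0.071). Around PDE12 on chromosome 3, 3 of 7 rose and 1 fell. ARF4, a small GTPase gene next to PDE12, rose by 0.74 (limma adjusted p = 5.4e-08). IL17RD, 5 genes away on the other side, fell by 1.47 (limma adjusted p = 1.3e-04). Its levels were low, 1.09 to 1.69 FPM in DMSO libraries and 0.07 to 0.256 FPM in ATRA libraries.

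**Figure D4:**
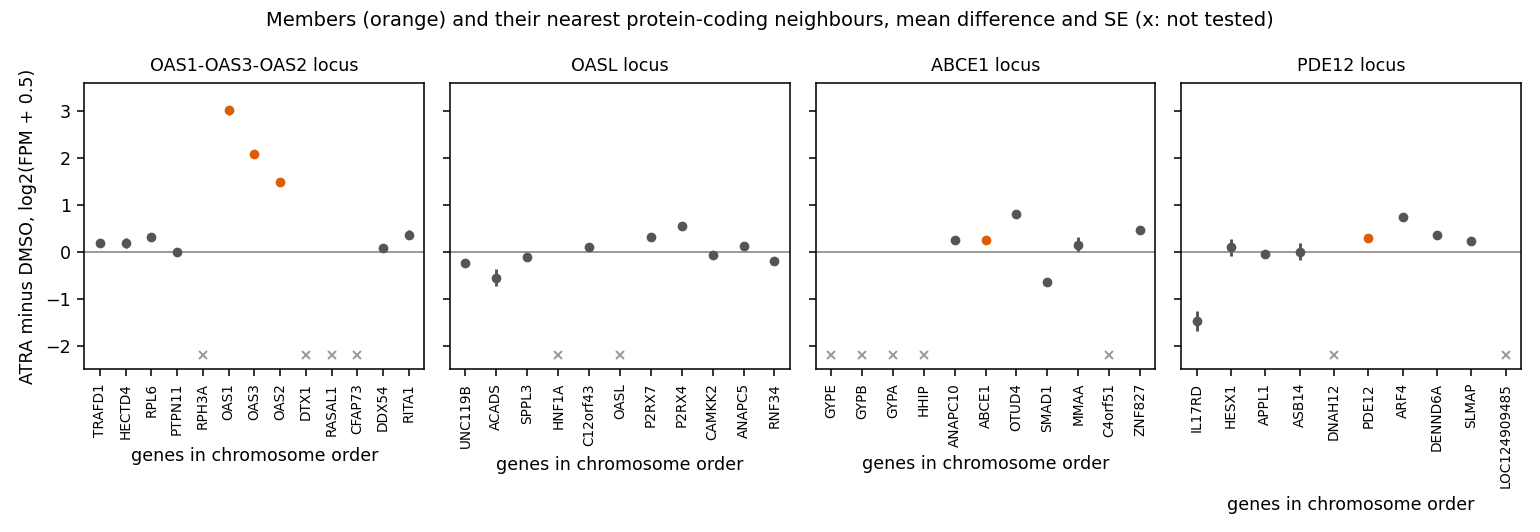
ATRA minus DMSO difference on the log2(FPM + 0.5) scale (vertical axis) of the genes studied (orange) and of up to 5 protein-coding neighbours on each side (grey) in chromosome order (horizontal axes), with SE; crosses at the bottom mark genes that were not tested. The 3 synthetase genes stand at 3.02, 2.09 and 1.49 while their 6 tested neighbours lie between 0.00 and 0.37.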

How the data were processed

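The deposited table gives fragments per 1000000 (FPM, a CPM unit without length scaling) per gene and lane for 32 columns, 8 libraries on 4 lanes each. Per the submitters' processing notes, the authors used fastp 0.20.0, kallisto 0.46.2 and DESeq2; for build and annotation: not given in the sources used here. The values were whole multiples of 1 read for 100% of entries (tolerance 0.01 read), so reads were recovered for edgeR (7748 genes called with ATRA) and DESeq2 (5869) beside the main 7704.

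Lanes were averaged per library, and log2(FPM + 0.5) was fitted with limma 3.58.1 (R 4.3.3, trend, group means, all 8 libraries, residual df 4, prior df 7.2). Since Cfz and ATRA+Cfz have 1 library each, their variation was taken to equal that of the replicated groups. Tested were 15827 genes with a mean over the 4 group means of at least 0.5 FPM, and a call is a Benjamini-Hochberg adjusted p under 0.05 over all of them. OASL fell under that minimum. Alternatives were other pseudocounts, filters and scalings, edgeR 4.0.16, DESeq2 1.42.0, single lanes, a replicate block and leaving out each DMSO and ATRA library. Depth was 14136937 to 17155331 reads per library, so 3 reads are 0.175 to 0.212 FPM. The fit was tested on simulated data.

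The members and lists were chosen with earlier results of these data known. Beyond the members, the text names for each list the called genes with the largest difference, up to 3 for ATRA, 3 for Cfz and 2 for the interaction, a few fixed genes, the 4 genes most like each member, and neighbours of the members. 3 genes given by the naming rule are not reported here and were left out of the lists, neighbours and likeness. Symbols came from the table, or from a gene name table for 7163 IDs. Promoters are from RefSeq (GRCh38.p14) and exon overlaps from GENCODE release 29.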

Additional observations from a re-analysis of the deposited data

Results flagged for a closer look

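SAMD9, a neighbour and relative of the antiviral gene SAMD9L in the core interferon-stimulated list, had a different response to ATRA with and without the carfilzomib pulse by the test of the difference itself. It was at 159 to 169 FPM in DMSO libraries and 147 to 153 FPM in ATRA libraries, but at 122 FPM with Cfz and 161 FPM with ATRA+Cfz. The ATRA difference was -0.13 ± 0.04 (SE) without carfilzomib and 0.40 ± 0.06 (SE) after it, an interaction of 0.53 ± 0.07 (SE; limma, Benjamini-Hochberg adjusted p = 0.012). The 2 values after carfilzomib come from 1 library each.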

How the results depend on the processing

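Of 2260 recomputed gene values over 112 results, 2049 kept their direction and side of the threshold, 182 lost their call, 6 gained one and 23 changed sign. With ATRA against DMSO and with ATRA+Cfz against DMSO the members called stayed at 5 when any 1 of the 6 DMSO and ATRA libraries was left out; the single Cfz and ATRA+Cfz libraries were not left out. For ATRA+Cfz against DMSO 4 were called with lane 1 alone. With Cfz against DMSO the main count of 3 became 1, the higher PDE12, with median-ratio scaling, TMM scaling, edgeR and DESeq2. It also became 1 with lane 3 alone, the lower OAS2, and with lane 4 alone, the lower OAS3. With lanes 1 and 2 alone it was 0, and no single lane called PDE12. The count ranged from 1 to 3 with a library left out. For ATRA+Cfz against Cfz, 5 became 3 with lane 1 alone and 4 with lanes 3 and 4 alone. For ATRA+Cfz against ATRA, 2 became 1 with DESeq2 and lanes 2 and 3 alone 0 with lanes 1 and 4 alone and 3 with the filter at 2 FPM, edgeR and robust empirical Bayes, and ranged from 2 to 4 with a library left out. A single lane holds fewer reads; otherwise the cause was not tested.

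Among the members, the values that changed sign were small and not called. OAS1 with Cfz was 0.06 in lane 1. ABCE1 with Cfz was 0.01 with median-ratio scaling and with DESeq2, and in ATRA+Cfz against ATRA it was 0.01 with TMM and edgeR and 0.02 in lane 4. The OAS1 interaction was -0.02 with median-ratio scaling, 0.00 with DESeq2, -0.10 in lane 1 and -0.15 to 0.09 with a library left out. For OAS2 it was 0.22 in lane 3, and for OAS3 -0.23 in lane 3 and -0.06 to 0.11 with a library left out. For ABCE1 it was -0.01 with median-ratio scaling and DESeq2, -0.04 in lane 1, 0.00 in lane 3 and -0.01 to 0.05 with a library left out. For PDE12 it was 0.07 in lane 2, 0.04 in lane 3 and -0.03 to 0.00 with a library left out. TRAFD1 with ATRA, called in the main analysis, was -0.06 in lane 4.

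Replicate numbers did not pair the libraries: same-numbered DMSO and ATRA libraries correlated at -0.006, -0.002 and 0.006 in their deviations. With the replicate block, 5 members were called and OAS1 differed by 3.02; of the named genes ANAPC5 lost its call (0.12, limma adjusted p = 0.061). Among the calls in ATRA+Cfz against ATRA, 34.4% were higher with limma and 45.3% with edgeR, and in the interaction 43.1% with limma and 22.6% with DESeq2. Depth limits OASL, which had at most 7 reads in a library.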
